A study of Mus musculus with 14 samples.

Results

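Peaks of N6-methyladenosine (m6A) that lie in introns made up 9999 of the 214424 rows that the authors listed for mouse brain. They were taken as every row annotated "intronic" in 3 group peak lists and 3 tables of differential peaks. The peak lists held 2239 such rows of 48251 in sham (4.64%), 2891 of 54754 in ICH (5.28%) and 2508 of 50105 in acupuncture (5.01%). The differential tables held 839 of 20948 rows for acupuncture against ICH, 683 of 23124 for ICH against sham and 839 of 17242 for acupuncture against sham.

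The study asked how acupuncture alters m6A in the brain after a cerebral haemorrhage. Mice were sham-operated (3 IP and 3 input libraries), received autologous blood to model intracerebral haemorrhage (ICH; 2 IP and 2 input), or had the same haemorrhage and were then needled at the GV20 point on 7 days in a row (acupuncture; 2 IP and 2 input). Labels give no strain, sex, age or brain region, and do not say whether replicates were separate animals, so p-values measure only the spread between these samples. Poly(A) RNA was fragmented and pulled down with an m6A antibody (IP) beside unselected fragments (input), in strand-specific libraries. Each peak list and each differential table describes whole groups, so peaks have no value per library. Input levels per gene (FPKM, fragments scaled for gene length and library size) exist for all 7 input libraries.

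The methyl group of m6A is placed while RNA is being made, by a nuclear complex built around Mettl3 and Mettl14, mostly at an adenosine within GGAC-like motifs. Most m6A of mature messages lies in long internal exons and near stop codons, and nuclear readers such as Ythdc1 and Hnrnpa2b1 can bind it before splicing is complete. Poly(A) RNA still contains introns where a message is retained unspliced, where polyadenylation happens early, or where a separate gene lies in the intron of its host.

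The sequences available here reach intronic peaks at a few places, and these are shown because they are the only peaks whose letters can be read. Of 1005 miRNA hairpins in the RefSeq table (GRCm38.p6), 4 shared bases with an intronic peak, while 277 did with a peak of any annotation. Whole spans from a peak's first to its last base were compared. Spans over 1000 bp made up 38.7% of all sham peaks and 4.20% of the intronic ones, so the 2 counts are not alike. The hairpin of miR-1249 lay in 5031439G07Rik under peaks of ICH (log2 enrichment 0.79) and acupuncture (1.15). miR-1291 in Kansl2 (1.01) lay under an ICH peak and miR-1894 in Ppp1r10 under an acupuncture peak (0.99). In Ints1 an ICH peak (0.94) covered part of the miR-7037 hairpin, with a part of its 5p arm and none of its 3p arm, and the acupuncture peak covered part of miR-1249-3p. The mature sequences that shared bases with a peak follow, with the seed (bases 2 to 8) in capitals, and no seed was shared.
mmu-miR-1249-3p: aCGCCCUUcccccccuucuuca
mmu-miR-1291: aUGGCUCUuacugaagacuagcaguu
mmu-miR-7037-5p: aAGGUGGCcacaggagaucauggu
mmu-miR-1894-5p: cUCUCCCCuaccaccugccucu
mmu-miR-1894-3p: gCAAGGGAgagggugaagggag

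RefSeq start windows of 300 bases (250 before a transcript's start and 50 after it) overlapped intronic peaks at 32 of 32851 places, 10 of them in all 3 lists, and 18 were a start of the host gene itself. Of the peaks, 7 lay wholly inside a window, and 3 of these held GGACT on the sense strand: those in Fez2, Slc6a9 and Apc2. Among stretches of 101 bases, the narrowest peak, cut from the start, middle and end of every window, 9.57% held GGACT and 30.9% held the shorter GGAC, which is contained in it. The whole Apc2 peak of ICH spanned 151 bp, more than these stretches, so the shares are not like for like. An acupuncture peak over the same Apc2 window (log2 0.89, as in ICH) held no GGACT in its covered part. Capitals in the windows below mark the bases that the peak covered. The first 3 are the whole peaks with GGACT, Tsn is a whole peak without it, Limk2 is a peak that covers only bases before the start of its gene, and Arpp21 is a peak that reaches over a start of its own gene. Limk2 encodes a kinase of the actin cytoskeleton and Arpp21 a phosphoprotein abundant in striatal neurons. The covered part held GGACT in Limk2 and no GGAC in Arpp21. Windows of Fez2 and Slc6a9 belong to the non-coding genes Gm32336 and Gm40233.
Fez2, acupuncture list, window chr17:78400276-78400575: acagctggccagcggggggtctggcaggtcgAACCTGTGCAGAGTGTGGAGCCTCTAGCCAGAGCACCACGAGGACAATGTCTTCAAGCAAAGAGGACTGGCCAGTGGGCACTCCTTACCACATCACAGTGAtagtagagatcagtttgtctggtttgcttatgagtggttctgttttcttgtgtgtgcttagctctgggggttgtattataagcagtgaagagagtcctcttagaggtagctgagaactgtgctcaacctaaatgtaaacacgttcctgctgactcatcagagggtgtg
Slc6a9, sham list, window chr4:117874271-117874570: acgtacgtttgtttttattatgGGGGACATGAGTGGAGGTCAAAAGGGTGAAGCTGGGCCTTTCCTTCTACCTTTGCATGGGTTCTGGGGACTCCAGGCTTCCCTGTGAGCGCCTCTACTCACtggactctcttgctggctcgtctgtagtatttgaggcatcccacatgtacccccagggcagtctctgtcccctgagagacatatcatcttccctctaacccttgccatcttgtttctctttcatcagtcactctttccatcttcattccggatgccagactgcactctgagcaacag
Apc2, ICH list, window chr10:80301570-80301869: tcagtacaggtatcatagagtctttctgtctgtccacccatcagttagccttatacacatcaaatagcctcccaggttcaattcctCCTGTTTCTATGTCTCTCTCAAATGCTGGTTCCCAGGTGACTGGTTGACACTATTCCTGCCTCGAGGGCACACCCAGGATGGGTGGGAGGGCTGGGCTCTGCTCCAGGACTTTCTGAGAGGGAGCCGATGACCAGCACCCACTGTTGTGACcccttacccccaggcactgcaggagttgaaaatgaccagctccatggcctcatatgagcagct
Tsn, sham list, window chr1:118310679-118310978: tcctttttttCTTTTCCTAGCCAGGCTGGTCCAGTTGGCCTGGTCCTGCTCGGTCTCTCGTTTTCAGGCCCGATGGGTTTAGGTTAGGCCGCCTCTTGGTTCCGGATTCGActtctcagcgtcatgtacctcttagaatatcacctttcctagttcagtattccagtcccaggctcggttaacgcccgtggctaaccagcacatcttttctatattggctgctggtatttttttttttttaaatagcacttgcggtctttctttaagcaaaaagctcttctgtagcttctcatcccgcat
Limk2, acupuncture list, window chr11:3356092-3356391: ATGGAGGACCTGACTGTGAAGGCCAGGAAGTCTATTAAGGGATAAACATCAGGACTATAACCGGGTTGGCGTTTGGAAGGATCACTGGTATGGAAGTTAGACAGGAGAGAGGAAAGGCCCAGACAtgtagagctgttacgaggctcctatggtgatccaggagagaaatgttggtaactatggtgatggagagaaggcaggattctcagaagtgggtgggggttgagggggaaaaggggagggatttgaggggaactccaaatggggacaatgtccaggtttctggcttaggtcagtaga
Arpp21, ICH list, window chr9:112233263-112233562: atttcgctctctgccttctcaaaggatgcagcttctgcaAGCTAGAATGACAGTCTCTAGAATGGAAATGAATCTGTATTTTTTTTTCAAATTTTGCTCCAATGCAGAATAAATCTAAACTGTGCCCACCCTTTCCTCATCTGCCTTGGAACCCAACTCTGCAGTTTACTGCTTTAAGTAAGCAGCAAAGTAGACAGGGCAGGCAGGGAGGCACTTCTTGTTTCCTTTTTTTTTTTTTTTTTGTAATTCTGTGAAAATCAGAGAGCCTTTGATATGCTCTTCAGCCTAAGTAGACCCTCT

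Intronic peaks were narrow and weakly enriched. The median log2 of IP over input, the authors' value per peak, was 0.81 in sham, 0.96 in ICH and 0.88 in acupuncture. Over all peaks the medians were 1.07, 1.24 and 1.12, and in 3′ UTRs 1.16, 1.47 and 1.25. Peaks in coding exons lay as low as intronic ones (0.80, 1.01 and 0.88). The genomic span had a median of 151, 164 and 151 bp in introns, beside 526, 576 and 537 bp over all peaks. At 101 bp, the smallest span in every list, stood 26.1% of the sham, 22.5% of the ICH and 24.9% of the acupuncture intronic peaks, but 5.79%, 5.35% and 5.54% of all peaks. A span over 1000 bp was found for 4.20%, 4.22% and 4.35% of intronic peaks and for 38.7%, 39.2% and 38.1% of all peaks. With 1 list per group none of these differences can be set against a spread between replicates.

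**Figure D1:**
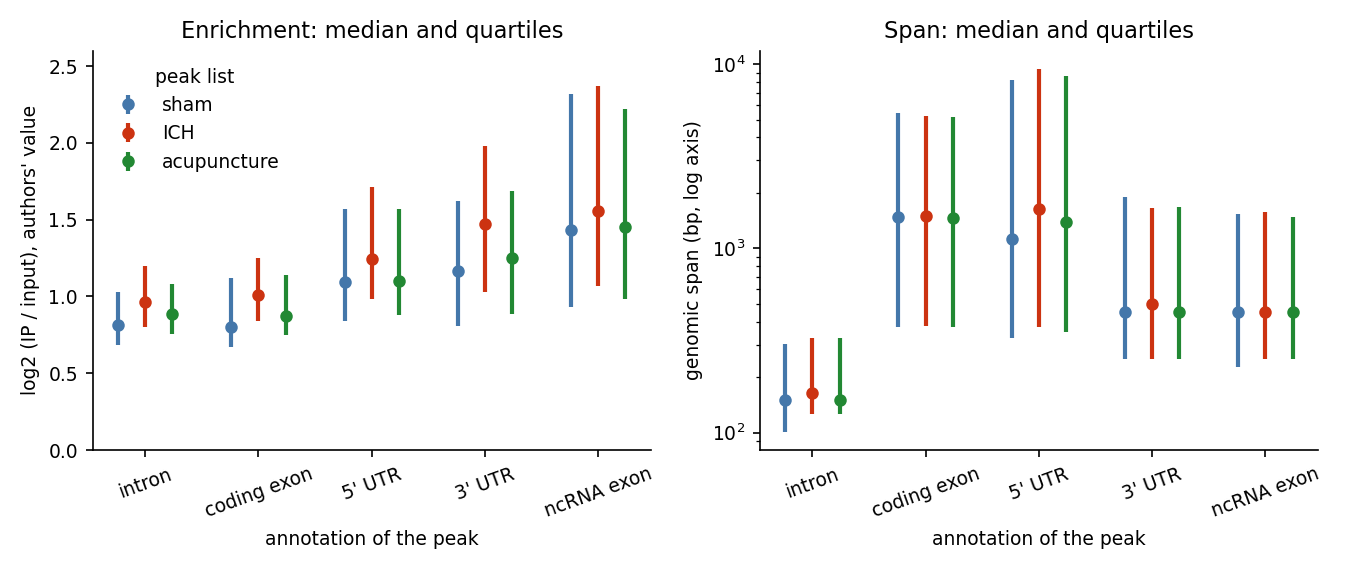
Authors' log2 IP over input (left) and genomic span in bp on a log axis (right) of peaks by annotation, for the sham, ICH and acupuncture lists; points are medians and bars run from the lower to the upper quartile over peaks. Intronic medians of 0.81 to 0.96 match those of coding exons on the left, while the intronic spans of 151 to 164 bp are the shortest of the 5 annotations drawn.

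A few intronic peaks were very wide. Positions here and below are those of the authors' files, whose gene starts and ends fit GRCm38. The widest lay in Ntm, a cell adhesion gene of neurons (chromosome 9, 28994750 to 29963141), and spanned 267444 bp in ICH and 267644 bp in acupuncture, with log2 enrichments of 1.60 and 1.03 and no intronic row of that width in sham. In Gpr45, a receptor gene, 1 peak spanned 74467, 75717 and 74717 bp in sham, ICH and acupuncture (log2 1.13, 1.99 and 1.26). Fgfr2, a growth factor receptor, had peaks of 37993 bp in sham and 37968 bp in ICH over the non-coding gene 1500002F19Rik. The span is the distance from a peak's first to its last base. The blocks within a peak are not given in the files used here, so a wide span does not mean that all its bases were enriched. These genes were chosen for their spans after the values were seen.

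Along the host gene, intronic peaks were more frequent in the 3′ than in the 5′ part. With the gene cut into 5 equal parts from 5′ to 3′, the sham list placed 13.4%, 16.4%, 19.1%, 23.9% and 27.2% of them in each. The outermost parts held 13.5% and 25.8% in ICH, and 14.6% and 25.0% in acupuncture. Midpoints lay at a median of 0.61, 0.59 and 0.60 of the gene, close to coding-exon peaks (0.63, 0.61 and 0.62) and far from 3′ UTR peaks, at 0.96 in each list.

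**Figure D2:**
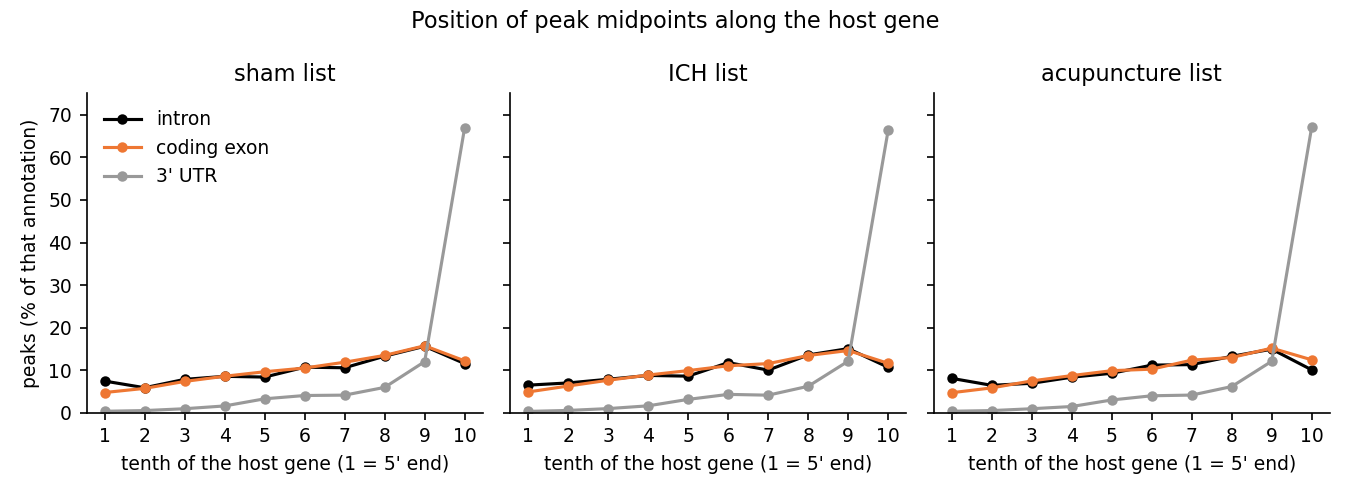
Share of peaks (percent of the annotation, y) by the part of the host gene that holds the midpoint (x, 10 equal parts, 1 at the 5′ end), for intron, coding exon and 3′ UTR peaks in each list. Intron and coding-exon lines run close together, and both drop in the last part, whereas 66.4% to 67.2% of 3′ UTR peaks and 10.1% to 11.6% of intronic peaks fall in the last part.

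Introns with a peak mostly belonged to genes that carried other peaks too. Such a second, non-intronic peak was listed in the host of 97.5% of intronic peaks in sham, 98.3% in ICH and 97.8% in acupuncture. Peaks were common in other genes as well. Of 13666 genes at a mean of at least 1 FPKM, 3024 had an intronic peak in some list and 10072 had other peaks only. The high shares are therefore not read as a trait of intronic hosts. A non-intronic peak on the same strand lay within 1000 bp of 42.4%, 43.1% and 40.2%. The hosts numbered 1633, 1960 and 1822 genes, of which 1219, 1371 and 1363 had a single intronic peak. In all, 3171 genes had an intronic peak in at least 1 list and 678 in all 3. Hosts were longer and more abundant than genes with other peaks only: the median gene span was 32945 against 16517 bp, and the median of mean FPKM was 6.15 against 2.41.

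Many of the strongest peaks called intronic lay over another gene. Of the intronic peaks, 13.8% in sham, 12.5% in ICH and 13.6% in acupuncture shared bases with a different gene on the same strand. These had median log2 enrichments of 1.13, 1.15 and 1.12, beside 0.79, 0.95 and 0.87 for the remaining intronic peaks. A log2 enrichment of at least 2 was reached by 20.4%, 20.2% and 21.4% of them, and by 3.21%, 3.20% and 2.95% of the rest. Among the 50 most enriched intronic peaks of each list, 27, 29 and 25 lay over another gene, and 33, 37 and 36 when RefSeq genes on either strand were added. Exon coordinates were not used here, so the label "intronic" could be checked against gene bodies but not against exons.

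**Figure D3:**
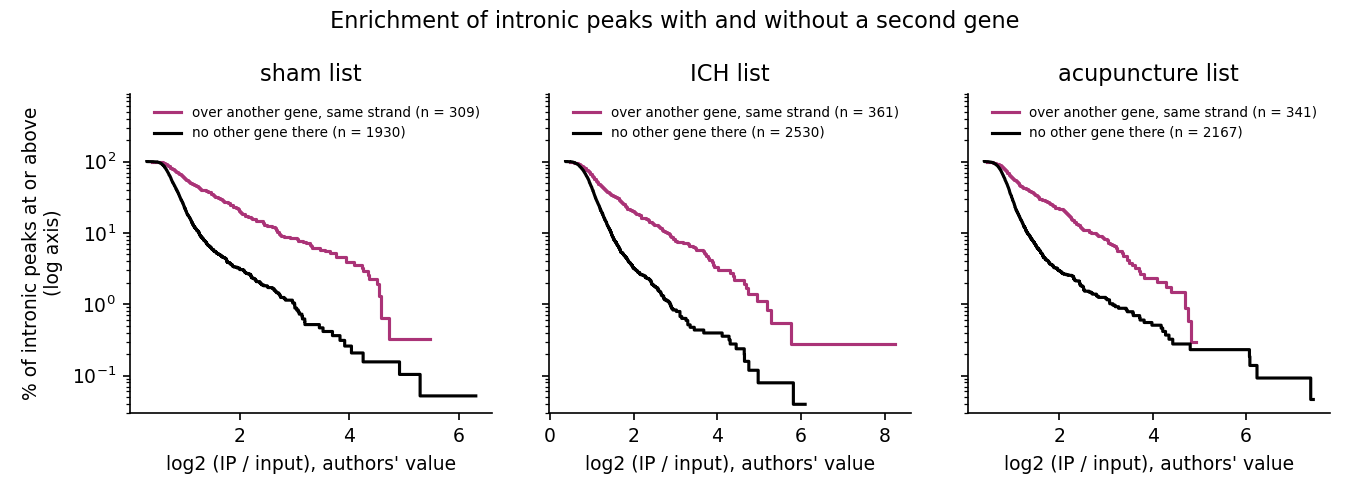
Percent of intronic peaks (y, log axis) at or above each log2 IP over input (x), for peaks that share bases with another gene on the same strand (purple) and the other intronic peaks (black), in the sham, ICH and acupuncture lists. At a log2 of 2 the purple lines stand at 20.2% to 21.4% and the black lines at 2.95% to 3.21%.

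Genes with many intronic peaks differed in this respect. Galnt2l, whose model covers 4434882 bp of chromosome 8 (119910841 to 124345722), had the most intronic peaks of any gene, 23 in sham, 22 in ICH and 24 in acupuncture, and every one of them lay over another gene. Fgfr2, with a model of 2960900 bp, had 8 in sham, 7 of them over another gene. By contrast Septin7, a cytoskeletal GTPase (chromosome 9, 25252439 to 25308571), carried 6, 7 and 6 intronic peaks with log2 values from 0.56 to 1.41 and none over another gene. The other hosts with the most rows and none over another gene were Arpp21, Camk1 and Setd5 with 6 in sham, Fnbp1l with 8, Dcaf13 and Hnrnpll with 7 and Hace1 with 6 in ICH, and Tulp4 with 8 and Ikbkb with 6 in acupuncture. Ank2, which encodes an ankyrin of neuronal membranes, had 8 in sham, 3 of them over another gene.

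Merging overlapping intronic peaks gave 5366 regions. Of these, 3856 (71.9%) came from 1 list, 993 from 2 and 517 (9.63%) from all 3. Regions of all 3 lists lay over another gene in 27.7% of cases, those of 1 list in 8.01%. An overlapping row of any annotation existed in ICH for 61.9% of sham intronic peaks and in acupuncture for 53.0%, and an overlapping intronic row for 38.1% and 35.1%. Whole spans were compared, and rows of any annotation were wider than intronic rows (medians of 576 and 164 bp in ICH). Of the ICH intronic peaks, 43.0% had a row of any annotation in sham and 49.0% in acupuncture, and of those of acupuncture 47.4% had one in sham and 64.8% in ICH. Over the 517 shared regions the median log2 enrichment was 0.93 in sham, 1.19 in ICH and 1.0 in acupuncture. The highest of the 3 values was that of ICH in 298 regions, of acupuncture in 126 and of sham in 93. In 456 of the 517 the values lay within 1 on the log2 scale of each other, and in 6 they differed by more than 2.

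The most enriched of these shared regions included known nested transcripts. In Trappc9 (a vesicle tethering factor), the region at chromosome 15, 72805599 to 72810324, lay over Peg13, an imprinted long non-coding RNA expressed in brain, with log2 enrichments of 3.65, 3.81 and 3.81 in sham, ICH and acupuncture. Peg13 was well expressed in the input: 54.7, 52.6 and 50.1 FPKM in sham, 50.1 and 63.1 in ICH, and 45.4 and 46.8 in acupuncture. The sham and ICH ranges overlap, both acupuncture libraries are the lowest, and no comparison passed the test (limma adjusted p 0.272 to 0.633). In Dcun1d2 the region at chromosome 8, 13286076 to 13287466 (log2 4.23, 4.69 and 4.83), lay over the transcript 9530085L11Rik, at 1.20 to 1.31 FPKM in sham, 0.88 and 1.06 in ICH and 0.66 and 1.03 in acupuncture.

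Other shared regions lay over pseudogenes and unnamed transcripts with little input. The most enriched, in Nxpe3 (chromosome 16, 55883921 to 55884396; log2 5.48, 8.24 and 4.69), lay over the pseudogene Gm17809, at no more than 0.29 FPKM in any library. In Uvrag, which acts in autophagy (chromosome 7, 98905712 to 98906262; 5.29, 2.53 and 7.39), the region met the RefSeq transcript Gm8149. In Antxr1 (chromosome 6, 87333101 to 87334301; 4.72, 5.76 and 4.39) it lay over Gm44414, at 0.09 to 0.21 FPKM. Galnt7 and Fars2 had regions over 4930412F12Rik and Gm46409, both at most 0.28 FPKM in every library. Where a pseudogene resembles its parent gene, these files cannot show which copy gave the reads.

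Some strongly enriched shared regions met no second gene. Camk2b, the beta subunit of a calcium-dependent kinase of synapses (chromosome 11, 6013436 to 6015261), had log2 values of 3.92, 3.45 and 3.02 over spans of 1751, 1826 and 1726 bp. Gin1 (chromosome 1, 97770559 to 97770909) had 3.07, 4.75 and 3.58, and Vdac3, a channel of the outer mitochondrial membrane (chromosome 8, 22585503 to 22585878), 1.96, 4.98 and 3.58. In single lists, the largest enrichments without a second gene were those of Lrrc1 in sham (6.31), Pole in acupuncture (7.44) and Nav2 in acupuncture (6.07). Pole encodes a DNA polymerase subunit and was at 0.08 to 0.11 FPKM in sham and 0.39 to 0.52 in the other libraries. The remaining rows of largest enrichment lay in Mgll (4.59 in sham), Ropn1l (4.54) and Zfp280d (4.54), in Ccr9 (6.10), Ttll5 (5.82) and Smo (4.96) in ICH, and in Litaf (6.24), Catspere2 (4.92) and Kcnab1 (4.80) in acupuncture, each over another gene of the FPKM or RefSeq table.

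Many of the listed genes of splicing had an intronic peak. Among 27 SR proteins and splicing regulators, many of which regulate themselves through retained or poison introns, 18 had an intronic peak in some list and 6 in all 3 (Srsf4, Srsf11, Tra2a, Hnrnph1, Luc7l2 and Snrnp70). Over all 13666 tested genes the shares were 22.1% and 4.68%. Hosts were longer and more abundant than genes with other peaks only, and these shares were not matched for length or abundance. This list and those below were also drawn up with earlier results of these data known. Srsf4, an SR protein, had 4 intronic peaks in each list, at log2 0.78 to 2.01 in sham, 0.73 to 1.64 in ICH and 0.57 to 1.40 in acupuncture, and 4, 4 and 3 of these lay over A930004J17Rik on the same strand. Snrnp70, a core protein of the U1 particle, had 2 peaks in sham, 6 in ICH and 5 in acupuncture, and its shared region (chromosome 7, 45381385 to 45381810) stood at 0.73, 1.17 and 0.72. In Luc7l2, a U1-associated factor (chromosome 6, 38570179 to 38570379), the shared region had log2 values of 0.74, 1.05 and 0.89. Hnrnph1, which binds G-rich RNA, had 1 peak in each list, at 3 sites that did not overlap (0.60, 1.79 and 0.78). None of the 18 genes passed the test on input FPKM in any comparison.

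Among 18 tested neuronal splicing factors 9 had an intronic peak, with Mbnl2 and Srrm4 in all 3 lists. Every intronic peak of Srrm4 in these lists lay over another gene on the same strand, and none of those of Mbnl2 did. The shared Mbnl2 region (chromosome 14, 120390360 to 120390885) had log2 enrichments of 0.89, 1.03 and 0.69. Of 19 tested m6A writers, readers and erasers 4 had one. Of all 22 such genes listed 5 did, with Igf2bp3 in acupuncture alone (1.12). The reader Hnrnpa2b1 had one in each list (2, 2 and 1, at log2 0.58 to 1.07), Ythdc1 in sham and ICH, and the catalytic subunit Mettl3 (0.56) and the adaptor Rbm15 (1.12) in ICH alone.

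Among 41 tested long synaptic and adhesion genes 13 had an intronic peak, and those with one in all 3 lists included Dlg2, Ntm, Csmd2, Ctnnd2 and Nrg3. All Dlg2 peaks of ICH and acupuncture lay over another gene on the same strand, and that of sham did not. Csmd2, a large CUB and sushi domain protein of neurons, reached log2 3.14 in sham and 2.30 in ICH at one region and 2.45 in acupuncture at another, and its input level was 2.32 to 3.05 FPKM. Of 47 ion channels and receptors 15 had one, with Kcnq5, Kcnt1, Grin1 and Gria2 in all 3 lists. At chromosome 2, 25889979 to 25890654, the sodium-activated potassium channel Kcnt1 had log2 values of 0.70, 1.57 and 1.05 in sham, ICH and acupuncture. Gria2, an AMPA receptor subunit whose message is edited through intron pairing, had 0.72, 1.54 and 1.26 at chromosome 3, 80706633 to 80706833. The Kcnq5 region, over the pseudogene Gm7658, had 1.25, 0.99 and 1.49.

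Among the other lists, 8 of 19 striatal genes had an intronic peak, beside 22.1% of all tested genes. Hosts were also 3 of 20 oligodendrocyte genes, 3 of 33 haemorrhage, glial and immune genes and 1 of 13 brain long non-coding RNAs (Snhg11). Stat3, a signalling factor of reactive glia, was the immune gene with a peak in all 3 lists (0.82, 0.82 and 0.49 at the strongest row). Arpp21 had 6 intronic peaks in sham, 4 in ICH and 2 in acupuncture. At the start window shown above it had sham rows of log2 0.90 and 1.22, an ICH row of 2.15 and no row in acupuncture.

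For each region they hold, the differential tables list enrichment (log2 of IP over input, as the authors computed it) in both groups, the difference and an adjusted p. The tables hold only rows with an unadjusted p under 0.05, apart from rows without a p, so the shares below are shares of rows already selected. In ICH against sham, 551 of 683 intronic rows had an adjusted p under 0.05 in the authors' deposited table (80.7%, beside 87.8% of all rows), 471 higher and 80 lower in ICH (over all rows 69.8% were higher and 18% lower). In acupuncture against ICH the authors' deposited table called 508 of 839 (60.5%, beside 73.8%), 108 higher and 400 lower in acupuncture (11.5% and 62.2% of all rows). In acupuncture against sham it was 461 of 839 in the authors' deposited table (54.9%, beside 63.6%), 317 higher and 144 lower (37.6% and 26.1%). The median difference of called intronic rows was larger in size than that of all called rows: per the authors' deposited tables it was 0.99 against 0.58 in ICH against sham, -0.90 against -0.49 in acupuncture against ICH and 0.90 against 0.25 in acupuncture against sham. Only rows past the authors' p enter these medians, and a less certain row passes only at a larger difference. The medians therefore do not show that intronic peaks changed more. ICH libraries enter the first 2 comparisons on opposite sides and sham libraries enter 2, so their directions are not independent. The p-values are the authors' own, and no spread between libraries stands behind them here.

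**Figure D4:**
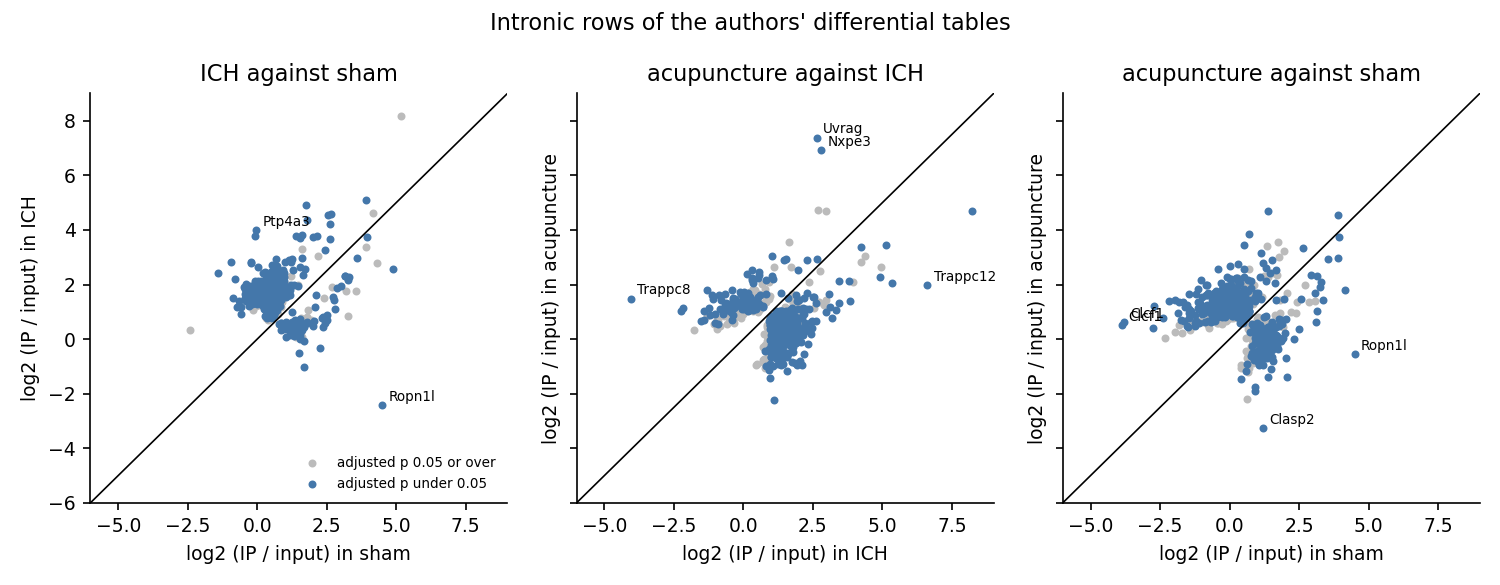
Authors' log2 IP over input of intronic rows in the second group (x) and the first group (y) of each differential table, with rows at an authors' adjusted p under 0.05 in blue, other rows in grey and the line of equal values in black; names are given for named rows that differ by more than 4. Most called rows of ICH against sham lie above the line (471 of 551) and most of acupuncture against ICH below it (400 of 508).

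The largest difference was that of the Ropn1l row at chromosome 15, 31446382 to 31446817, over the pseudogene Gm6361. Its log2 IP over input was 4.49 in sham and -2.43 in ICH in the authors' deposited table (difference -6.92, authors' adjusted p 4.83e-47), and 4.50 in sham and -0.55 in acupuncture (-5.05, 4.39e-40). Gm6361 was at 4.12, 9.73 and 15.2 FPKM in sham, 0.36 and 19.3 in ICH, and 12.9 and 15.6 in acupuncture. Its ICH libraries lie below and above all others, so the groups overlap and no comparison passed the test (limma adjusted p 0.435 to 0.763). Ropn1l itself stayed under 1 FPKM in every library.

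Higher rows of ICH against sham lay in genes of varied function. In the authors' deposited table, Ptp4a3, a phosphatase, rose from -0.04 in sham to 3.99 in ICH (adjusted p 1.93e-05). The rows of Adhfe1 (difference 3.88, over the pseudogene Gm6161), Srsf4 (3.83, over A930004J17Rik), Eif3g, a translation initiation subunit (3.78), Vdac3 (3.18) and Tenm2, a synaptic teneurin (3.04), followed in the authors' deposited table. Rows that fell, besides Ropn1l, were those of Dnm3 (-2.71), Stk32c (-2.58), Uvrag (-2.31), Tnrc6a (-2.00) and Tbc1d5 (-1.92) in the authors' deposited table. The Stk32c row lay over Gm45328, and the Uvrag row met the RefSeq transcript Gm8149. Input levels of the hosts of these higher and lower rows were tested between ICH and sham, apart from Ropn1l, which was below the level tested. None passed (limma adjusted p 0.202 to 0.984).

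Between acupuncture and ICH, the largest positive differences in the authors' deposited table were those of Trappc8 (5.54), Uvrag (4.75), Nxpe3 (4.11), Mrps10 (3.33), the astrocyte glutamate transporter Slc1a3 (3.25) and Srrm4 (3.09). For 4 of them IP was below input in ICH: in the authors' deposited table Trappc8 stood at 1.48 against -4.05, Mrps10 at 1.15 against -2.18, Slc1a3 at 1.01 against -2.24 and Srrm4 at 1.79 against -1.30. Another Srrm4 row was called lower in acupuncture (-0.99) in the authors' deposited table. The largest negative differences there, per the authors' deposited table, were those of Trappc12 (-4.65), Nxpe3 (-3.51), Rcc1 (-3.33), Etnppl (-3.30), Ift88 (-3.04) and Smarca2 (-2.89). The Smarca2 row met the RefSeq non-coding gene 4931403E22Rik. The rows of Slc1a3 and Smarca2 had no counterpart in any of the 3 peak lists, and that of Etnppl had one in acupuncture alone (1.63). Nxpe3 stands on both sides: its row at 55883146 to 55883396 went from 2.80 in ICH to 6.91 in acupuncture, and its row at 55883921 to 55884296 from 8.21 to 4.71, in the authors' deposited table. Both lie over the pseudogene Gm17809, and these neighbouring rows moved in opposite directions in the authors' deposited table. For the first row, the peak lists gave 4.36 in sham, 2.85 in ICH and 1.34 in acupuncture. They therefore did not show its rise in acupuncture, and the reason was not examined.

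Between acupuncture and sham, the authors' deposited table listed the largest positive differences for 2 adjacent rows of Clcf1, a cytokine (4.42 and 4.37), and for Snx19 (3.94), Ube2q1 (3.57), Commd6 (3.38) and Fars2 (3.33). All but Fars2 had IP below input in sham in the authors' deposited table: Clcf1 stood at 0.63 and 0.51 against -3.79 and -3.86, Snx19 at 1.23 against -2.71, Ube2q1 at 1.38 against -2.18 and Commd6 at 1.42 against -1.96. Both Clcf1 rows met the RefSeq non-coding gene Gm45928, and the Fars2 row lay over Gm46409. Besides Ropn1l, the negative differences were those of Clasp2, a microtubule-binding protein (-4.48, from 1.21 in sham to -3.27), Cyth4 (-3.44), Cstf2 (-2.81), Cr1l (-2.77) and the cyclin Ccnd3 (-2.71) in the authors' deposited table. A second Clasp2 row was called higher in acupuncture (2.01) in the authors' deposited table. At some of these hosts the input moved as well. Cyth4 rose from 1.40, 1.49 and 1.54 FPKM in sham to 5.86 and 4.89 in acupuncture (log2 fold change 1.36, SE 0.142, limma adjusted p 0.00146), and Clasp2 fell by 0.42 (adjusted p 0.0283). Clcf1 was below the level tested, at 0.12 to 0.38 FPKM in sham and 1.17 and 1.81 in acupuncture.

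The splicing regulators moved together in 2 tables. Of 9 intronic rows of SR proteins and splicing regulators in ICH against sham, 7 were called in the authors' deposited table, all of them higher in ICH, in Clk1, Luc7l2, Rbm5, Snrnp70, Srsf3 and Srsf4. In acupuncture against ICH 8 of 11 were called, all lower in acupuncture, in Clk1, Hnrnph1, Rbm5, Snrnp70, Srsf3 and Srsf4, per the authors' deposited table. In acupuncture against sham 4 of 8 were called, 2 higher and 2 lower. The row of Clk1, a kinase of SR proteins, at chromosome 1, 58420707 to 58420932, stood at 0.71 in sham and 1.76 in ICH in the authors' deposited table of that pair, and at 1.83 in ICH and 0.89 in acupuncture in the other. Both comparisons use the ICH libraries, and these directions are also those of most called intronic rows (471 of 551 and 400 of 508), so nothing is read from them about splicing regulators alone.

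Rows of the other lists were called in both directions, and in ICH against sham 80.7% of all intronic rows were called in the authors' deposited table. In ICH against sham, 5 of 6 rows of long synaptic and adhesion genes (Ntm, Ptprd and Tenm2) were called higher, and 4 of 4 rows of channels and receptors were called, 3 higher (Cacna1e, Gria2 and Kcnt1) and 1 lower (Grin1), in the authors' deposited table. Kcnt1 went from 0.67 to 1.53 and Gria2 from 0.66 to 1.56 in the authors' deposited table. Mag, a myelin gene, had a row called lower than sham in ICH (-1.19) and in acupuncture (-1.28) in the authors' deposited tables. The start-window row of Arpp21 was higher in ICH than in sham by 1.17 (the authors' deposited table, adjusted p 0.039) and a second Arpp21 row lower by 0.24. The Mettl3 row was lower in acupuncture than in ICH by 1.78 in the authors' deposited table.

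Input levels of the hosts were then compared over libraries, with limma on log2(FPKM + 1) fitted to the 13666 genes whose mean over the libraries reached 1 FPKM. Summed FPKM ranged from 179810 to 198472 per library, read depth is unknown, and ICH replicate 2 stood apart (r of 0.942 with ICH replicate 1 across genes, beside 0.976 to 0.988 within the other groups). Markers of endothelium summed to 23.3 to 30.5 FPKM in sham, 33.9 to 43.7 in ICH and 60.6 to 63.3 in acupuncture, and their part in the results below was not tested. Defining markers of neurons, astrocytes, oligodendrocytes, microglia and endothelium were above 0 in every library, and those of choroid plexus summed to 1.85 FPKM in 1 acupuncture library and to at least 333 elsewhere. Of 3024 tested hosts, 99 passed in ICH against sham (3.27%, beside 5.68% of all genes), 83 higher and 16 lower (4.95% and 0.724% of all genes were). In acupuncture against sham 272 passed (8.99%, beside 11.7%), 177 higher and 95 lower (8.47% and 3.22% of all genes). In acupuncture against ICH none did, by limma at an adjusted p under 0.05 (5 of all genes, 0.0366%), and 588 hosts, and 2754 of all 13666 genes, had an unadjusted p under 0.05. Without ICH replicate 1, when ICH replicate 2 stands alone for ICH and is assumed to vary like the other groups, the 3 comparisons gave 1143, 649 and 1189 hosts. Without any 1 of the sham libraries, ICH against sham gave 47 to 50 and acupuncture against sham 118 to 142 hosts. The latter also gave 648 without ICH replicate 2 and 111 and 103 without acupuncture replicates 1 and 2. Quantile normalization turned its split to 134 higher and 159 lower.

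The largest rises among hosts were those of 8 genes chosen by their fold change. Arg1, arginase of alternatively activated macrophages, was at 0.21, 0.31 and 0.33 FPKM in sham, 8.31 and 7.22 in ICH, and 27.0 and 10.9 in acupuncture. Its log2 fold change was 2.77 in ICH (SE 0.319, limma adjusted p 0.00354) and 3.83 in acupuncture (SE 0.319, 0.000571). Both haemorrhage groups lie above all sham libraries, and both acupuncture libraries above both ICH libraries, but the difference of 1.06 between these groups did not pass (limma adjusted p 0.21). The intronic peak of Arg1 was listed in acupuncture alone (log2 0.93). Tgfbi, a matrix protein, was at 1.11, 1.0 and 1.38 FPKM in sham, 10.3 and 12.6 in ICH, and 27.5 and 23.0 in acupuncture, with log2 fold changes of 2.52 and 3.60 (limma adjusted p 0.000227 and 3.33e-05). The macrophage or other immune genes Ms4a6c (2.70 and 3.57), Lilrb4a (2.55 and 3.17), Ly86 (2.22 and 1.58) and Fyb (2.16 and 1.95) rose in both groups, as did Capg (1.98 and 2.62) and Fcgr2b (2.03 and 2.37). All 8 of these genes lacked an intronic peak in the sham list, so they are hosts only through the groups in which they were high.

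The 3 immune genes of the list that had an intronic peak all rose, where 4.95% of all genes were called higher in ICH and 8.47% in acupuncture. The intronic peak of Csf1r was listed in acupuncture alone and that of Fn1 in sham alone, while Stat3 had one in every list. The list was drawn up with earlier results of these data known, so the contrast with all genes is no test of immune genes. Listed immune genes without an intronic peak were not compared here. Csf1r, the receptor on which microglia depend, was at 11.2 to 13.4 FPKM in sham, 33.3 and 28.4 in ICH and 28.3 and 27.3 in acupuncture (log2 fold change 1.26 and 1.12). Fn1, fibronectin, was at 3.54 to 4.05 in sham, 10.6 and 17.1 in ICH and 15.3 and 13.2 in acupuncture (1.60 and 1.67). Stat3 was at 3.94 to 4.71 in sham, 8.58 and 7.32 in ICH and 10.9 and 9.30 in acupuncture (0.76 and 1.07, limma adjusted p 0.0127 and 0.00176). No haemorrhage library overlapped sham for these 3 genes. The 4 microglial markers, of which Csf1r is 1, summed to 70.5 to 77.6 FPKM in sham, 157 to 184 in ICH and 132 to 150 in acupuncture, and their part in these results was not tested.

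A gene enters the hosts through any list, so one that is scarce in sham can enter through the group in which it is high. In the same way, one that falls after haemorrhage can enter through the sham list alone. Of the 83 hosts higher in ICH than in sham, 60 (72.3%) had no intronic peak in the sham list, as had 116 of the 177 higher in acupuncture (65.5%). Over all 3024 tested hosts it was 1478 (48.9%). Of the 640 tested hosts with an intronic peak in all 3 lists, 13 passed in ICH against sham (2.03%, beside 5.68% of all genes; 9 higher, 4 lower) and 35 in acupuncture against sham (5.47%, beside 11.7%; 21 higher, 14 lower).

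Striatal genes were among the hosts that fell. Among 8 striatal genes with an intronic peak, 4 fell in ICH against sham (Rgs9, Pde1b, Adcy5 and Pde10a), and these with Gng7 and Arpp21 made 6 in acupuncture against sham. Of all genes, 0.724% and 3.22% were called lower in these comparisons. The striatal list was drawn up with earlier results of these data known, so this contrast is no test of striatal genes. Pde10a and Gng7 were hosts through the sham list alone, and Rgs9 and Pde1b through the ICH list alone. Every intronic peak of Adcy5 and Gng7 lay over another gene on the same strand. Listed striatal genes without an intronic peak were not compared here. Pde10a, a phosphodiesterase of striatal projection neurons, was at 24.7, 23.5 and 25.8 FPKM in sham, 13.7 and 15.7 in ICH and 7.25 and 5.89 in acupuncture, with no overlap between the 3 groups. Its log2 fold change was -0.71 in ICH (SE 0.116, limma adjusted p 0.0158) and -1.77 in acupuncture (SE 0.116, 0.000215), and -1.05 between acupuncture and ICH did not pass (0.0789). Adcy5, the main adenylyl cyclase of striatum, was at 45.1 to 50.5 in sham, 27.6 and 22.3 in ICH and 20 and 15.4 in acupuncture (-0.91 and -1.38). Rgs9, a regulator of dopamine signalling, had log2 fold changes of -1.09 and -1.87 and Pde1b of -0.998 and -1.04. Without any 1 sham library the calls of Rgs9, Pde1b and Adcy5 in ICH were lost (limma adjusted p 0.0518 to 0.151), and that of Rgs9 also without ICH replicate 2 (0.162). The 4 oligodendrocyte markers also summed to less after haemorrhage, 718 to 923 FPKM in sham, 563 to 571 in ICH and 325 to 521 in acupuncture, and their part in these results was not tested. In bulk tissue, fewer cells of a type and less RNA per cell cannot be told apart. Labels give no brain region, so a difference in the piece of tissue sampled cannot be told apart from these either.

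Arpp21, whose start window is shown above, was at 23.9, 25.3 and 23.1 FPKM in sham, 16.4 and 21.8 in ICH and 14.8 and 14.7 in acupuncture. It fell in acupuncture by 0.67 on the log2 scale (SE 0.13, limma adjusted p 0.0184), and -0.33 in ICH did not pass (0.206). Among hosts outside the striatal list, the largest falls were those of Rasgrp2 (-0.91), Actn2 (-0.77) and Plk5 (-0.74) in ICH, and of Prkcd (-1.43) and Six3 (-1.39) in acupuncture. Whether these genes are striatal too was not examined. Plk5 in ICH lost its call without any 1 sham library, Prkcd without acupuncture replicate 2, and Six3 without any 1 sham or acupuncture library. Elavl2 (-0.59) and Grm5 (-0.64) also fell in acupuncture against sham.

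**Figure D5:**
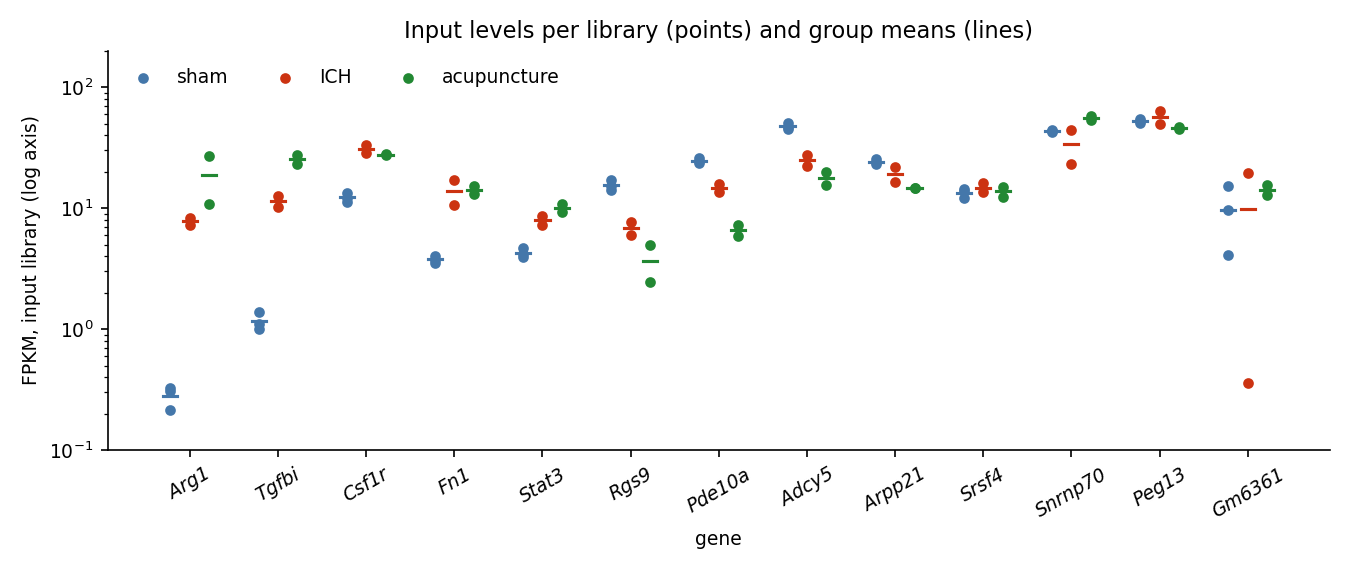
Input FPKM per library (points, log axis) and group means (lines) for hosts of intronic peaks and for the nested genes Peg13 and Gm6361, in sham (blue), ICH (red) and acupuncture (green). Arg1, Tgfbi, Csf1r, Fn1 and Stat3 lie higher in every haemorrhage library than in sham, Rgs9, Pde10a and Adcy5 lie lower, and Gm6361 spans 0.36 to 19.3 within ICH.

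The hosts of called intronic rows were also read on input level, beside all tested hosts, of which 8.99% passed for acupuncture against sham and 3.27% for ICH against sham. The 471 intronic rows called higher in ICH than in sham lay in 422 genes, of which 411 were tested on FPKM, 5 passing as higher and 2 as lower. The 80 lower rows lay in 75 genes, 68 of them tested, and 3 passed as higher (Cyth4, F3 and Pfn1). In acupuncture against sham, 8 of 276 tested hosts of higher rows passed on FPKM as higher and 9 as lower, and of 127 tested hosts of lower rows 10 passed as higher and 4 as lower. No host passed on FPKM in acupuncture against ICH, so that pair says nothing here. The input enters the denominator of the authors' log2 IP over input, so the 2 measures share libraries.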

How the data were processed

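m6A-selected (IP) and input poly(A) RNA of mouse brain was sequenced in 3 sham, 2 ICH and 2 acupuncture samples each. The authors deposited 1 peak list per group, with log2 enrichment of IP over input, a p-value and an adjusted p-value per peak, and 3 differential peak tables with log2 values and p-values. The authors also deposited FPKM per gene for the input libraries. Tools listed by the submitters' processing notes are edgeR, StringTie, HOMER, HISAT2 and fastp, with no version, beside a human build, while the files hold mouse Ensembl identifiers. Which tool called peaks is not stated. By symbol, 25208 genes matched the RefSeq table, of which 96.3% lay within 1000 bp of their GRCm38 position. FPKM columns named control and EA were taken as sham and acupuncture by elimination, and 2 columns that match no sample were left out.

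Intronic rows were overlapped (at least 1 shared base) with genes of the FPKM table and RefSeq, using Python 3.11.15 and pandas 2.3.3. Input levels were tested on log2(FPKM + 1) with limma 3.58.1 in R 4.3.3, with all 7 libraries in 1 fit, a variance trend and Benjamini-Hochberg adjustment at 0.05 over 13666 genes. This scale understates changes of scarce genes. On simulated data with 200 changed genes, changes of log2 1 were recovered in 55% of cases for acupuncture against ICH, 70% for ICH against sham and 71% for acupuncture against sham. Named items were the 8 most enriched rows and the 8 genes with most rows per list, the 6 largest called differences per direction, and up to 4 members per gene list. Members, lists and sequences were chosen with earlier results of these data known. Exon overlap and motifs within most peaks were not analysed here. Some items are not reported here.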

Additional observations from a re-analysis of the deposited data

How the results depend on the processing

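Requiring a log2 enrichment of at least 1 left 612 intronic peaks in sham, 1309 in ICH and 821 in acupuncture. With the authors' unadjusted p under 0.05, 838 intronic differential peaks were called for acupuncture against ICH and 839 for acupuncture against sham, which are all rows with a p, since the tables hold only such rows. With a log2 difference of at least 1 added, 310 were called for acupuncture against ICH and 307 for ICH against sham. Among hosts tested on FPKM, restriction to genes with a peak in all 3 lists left 13 for ICH against sham and 35 for acupuncture against sham, since fewer genes were counted. Leaving out 1 library gave 0 to 1189 hosts for acupuncture against ICH, 47 to 1143 for ICH against sham and 103 to 649 for acupuncture against sham, where the highest values came without ICH replicate 1 and the cause was not tested. A lone remaining sample was assumed to vary like the other groups. With the replicate number as a block, 0, 43 and 91 hosts passed in these 3 comparisons. The numbers were not taken to pair the samples, because same-numbered libraries deviated together with r from -0.015 to 0.094. Total counts under the other pseudocount, filter, normalization, trend, span and overlap settings stayed within 1.5 times, but lower hosts went from 16 to 9 in ICH against sham without the filter and from 95 to 159 in acupuncture against sham with quantile normalization. Without the filter 4 named calls were lost (Rgs9, Pde1b and Plk5 in ICH against sham, Six3 in acupuncture against sham), with the block 5 (Pde1b, Rasgrp2, Actn2, Plk5 and Six3), and at pseudocount 0.1 that of Rgs9 (limma adjusted p 0.0608). Of 288 alternatives for called named genes, 259 kept the call, 29 lost it and 0 reversed. Alternatives for overlap with a second gene were chosen after seeing the data and gave 245 to 320 peaks in sham, 286 to 353 in ICH and 274 to 346 in acupuncture. Exon and motif alternatives were not run. Read depth is unknown, and with 2 or 3 libraries a group small changes are not detectable.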
